A study of Mus musculus with 3 samples.

Results

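The genes described here are 9 genes of peptide hormones and of the granules that store them. They are Avp, Oxt, Scg2, Vgf, Pcsk1n, Chga, Pomc, Gh and Prl, out of 31053 genes counted by single-cell RNA sequencing (scRNA-seq) of mouse brain. They were chosen by their measured UMI counts in these data, high in a few barcodes, so their levels in those barcodes are a description, with no test. Each gene was looked up by its symbol and read in 2 groups of barcodes, and then in all other cell classes. Neurons were barcodes with at least 2 unique molecular identifiers (UMIs, each the count of 1 RNA molecule) of Snap25 and at least 1 of Syt1, both genes of the synaptic vesicle machinery. The Epcam-positive barcodes had at least 1 UMI of Epcam, an epithelial adhesion gene that is also active in the anterior pituitary. Of 35968 barcodes, 31982 had at least 1000 UMIs and at most 30% mitochondrial counts, and 113 of these were neurons and 284 were Epcam-positive.

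The study compared healthy control mice, mice with ischemic stroke from occlusion of the middle cerebral artery, and mice with hemorrhagic stroke from collagenase injected into the striatum. All were 10 weeks old, of a strain labelled C56BL6, and brains of several mice went into the 1 library of each condition. The tissue was broken up with an adult brain dissociation kit, and the labels name it only as brain, while the study describes its expression profiles as those of the striatum. No source used here says whether hypothalamus or pituitary was part of it. A barcode suffix from 1 to 3 separates the libraries in the deposited matrix, and no source used here ties a suffix to a condition. So the libraries are given by suffix, with no comparison of conditions, no replicate and no test, and each 95% interval covers counting error only. The libraries held 8969, 13769 and 9244 kept barcodes, with a median of 6389, 5801 and 6287.5 UMIs. Among all barcodes, 110 barcode sequences occurred in more than 1 library, but no neuron and only 4 Epcam-positive barcodes carried such a sequence.

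Peptide hormones are made as long precursors, sorted into dense-core granules, cut by proprotein convertases and released when calcium rises. Vasopressin (Avp) and oxytocin (Oxt) are made in hypothalamic neurons, which for vasopressin include neurons of the suprachiasmatic nucleus, the circadian clock of the brain. Growth hormone (Gh), prolactin (Prl) and the corticotropin precursor (Pomc) are the products of separate cell types of the pituitary, and Pomc is also made by neurons of the arcuate nucleus. Secretogranin II (Scg2), chromogranin A (Chga), Vgf and the convertase inhibitor proSAAS (Pcsk1n) are granule proteins shared by many neuroendocrine cells.

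The gates were checked against markers they do not use. Of 113 neurons, 100 had a UMI of at least 3 of 9 other neuron markers. Of the same 113, 28 passed the marker gate of neuroblasts (60% of a marker list detected), and 26 passed a glial, immune or vascular gate. The neuroblast gate took 6 of 62 neurons in suffix 1, 6 of 34 in suffix 2 and 16 of 17 in suffix 3, so suffix 3 holds 1 neuron without it. The Epcam-positive barcodes were not 1 cell type. Of 284, 76 passed the T/NK gate, 53 that of microglia, 46 that of oligodendrocytes and 27 that of oligodendrocyte precursors (OPCs). A pituitary marker other than Epcam was found in 36 of them, of which 33 had suffix 2, and in 80 of the 113 neurons, of which 78 had a UMI of Six6. Among genes with a UMI in at least 25% of them, the highest folds over other barcodes after Epcam itself were those of Fyn, Xcl1, Cyfip2, Spint2 and Cd74, and none of the 9 genes reached 25% of them except Pcsk1n. They are therefore called by their gate and not by a cell type. Both gates were passed by 6 barcodes, all of suffix 2.

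Folds were taken as the counts per 1000000 UMIs (CPM) of summed UMIs plus 10 in a gate, divided by the same in all other kept barcodes, for genes with at least 100 UMIs. At least 4-fold higher in neurons were 3.14% of the 15080 genes tested, and 8 of 8 tested members, with a median of 37.7-fold against 1.07-fold over all genes. At least 4-fold lower in neurons were 2.12% of genes and 0 of 8 members. Without the 6 barcodes that pass both gates, 5 of 8 members remained past 4-fold, with 3.31% of all genes, and the members lost were the 3 pituitary hormones Gh, Prl and Pomc. In Epcam-positive barcodes, 0.431% of genes were at least 4-fold higher. Of the 8 tested members, 5 were higher there (Chga, Gh, Pomc, Prl and Scg2) and Avp was lower, at 0.22-fold, where 0.444% of genes were at least 4-fold lower. For Scg2 (4.30-fold) and Chga (4.62-fold), 1 Epcam-positive barcode held 432 of 699 and 90 of 200 UMIs. The folds of Scg2 and Chga without that barcode were not computed. Leaving out the library of suffix 2 left 0 of 6 members past 4-fold in Epcam-positive barcodes, with 0.467% of all genes, and 5 of 6 in neurons, with 3.09%. Oxt had 52 UMIs in all and was not tested. These shares used the values for which the genes were chosen, so nothing is read from them.

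**Figure D1:**
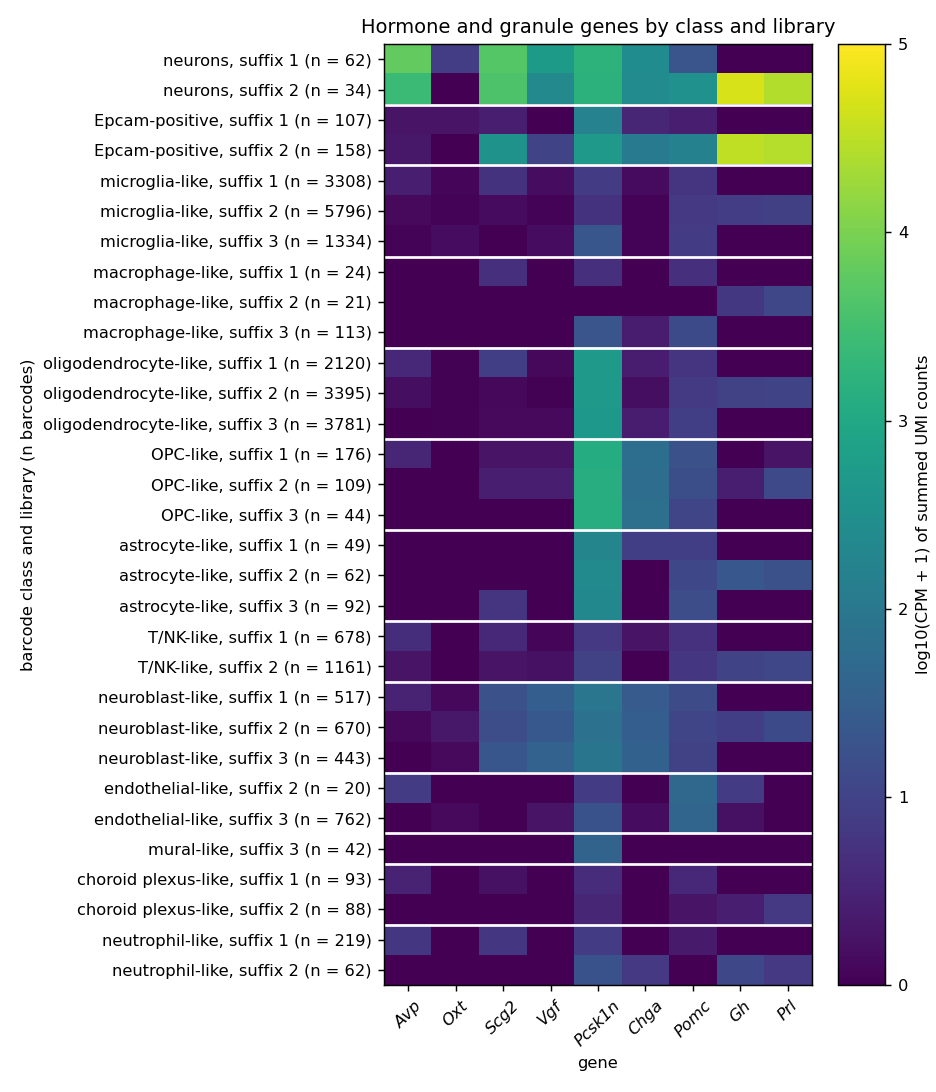
Level of each gene in every cell class and library with at least 20 barcodes, as log10(CPM + 1) of summed UMI counts; rows are classes by barcode suffix and columns are genes. Avp and Scg2 are high in neurons of suffix 1 and 2, Gh and Prl in the neuron and Epcam-positive barcodes of suffix 2, and Pcsk1n in neurons of suffix 1 and 2 and in OPC-like and oligodendrocyte-like barcodes of every library. Neurons and Epcam-positive barcodes of suffix 3 are under 20 and not drawn.

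Vasopressin had the highest fold in neurons of the 9 genes, at 201-fold. The kept barcodes held 9453 Avp UMIs, of which 7292 lay in suffix 1, 2160 in suffix 2 and 1 in suffix 3. In neurons, Avp stood at 6303 CPM in suffix 1 (95% interval 6136 to 6473), 2571 CPM in suffix 2 (2425 to 2724) and 0 CPM in suffix 3, where a count of 0 allows up to 15.9 CPM. A UMI of Avp was found in 43 of 62, 11 of 34 and 0 of 17 neurons. Level and share were highest in suffix 1 and were 0 in suffix 3, where 16 of 17 neurons also passed the neuroblast gate. None of the 28 neurons with the neuroblast gate held an Avp UMI in any library. The 34 neurons of suffix 2 include the 6 barcodes that pass both gates, which all held 0 Avp UMIs. Levels of suffix 2 neurons without these 6 are not given here for any member. Over all 113 neurons the share was 47.8% (95% interval 38.3 to 57.4) at a median of 11383 UMIs, and 30.8% when each barcode was thinned to 1000 UMIs. In microglia-like barcodes, which should lack the gene, it was 0.613% at a median of 7247 UMIs and 0.0931% after thinning.

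Avp and Oxt are neighbours on chromosome 2, on opposite strands, with their 3' ends toward each other. In GENCODE's annotation of GRCm38, Avp (ENSMUSG00000037727) runs from 130580620 to 130582554 on the minus strand and Oxt (ENSMUSG00000027301) from 130576173 to 130577054 on the plus strand, with 3565 bases between their ends. No other annotated gene overlaps either. The 250 bases before each RefSeq start are shown because the 2 neighbours had such different counts; they are from GRCm38.p6, chr2:130582589-130582838 on the minus strand for Avp and chr2:130575919-130576168 on the plus strand for Oxt. Capitals mark an E-box, CACGTG, to which helix-loop-helix factors such as the clock proteins bind.
Avp promoter: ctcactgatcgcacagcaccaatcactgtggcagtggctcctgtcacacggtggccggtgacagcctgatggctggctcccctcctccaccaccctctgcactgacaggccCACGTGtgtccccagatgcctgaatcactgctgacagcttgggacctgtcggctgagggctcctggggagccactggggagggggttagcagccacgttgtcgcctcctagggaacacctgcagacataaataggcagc
Oxt promoter: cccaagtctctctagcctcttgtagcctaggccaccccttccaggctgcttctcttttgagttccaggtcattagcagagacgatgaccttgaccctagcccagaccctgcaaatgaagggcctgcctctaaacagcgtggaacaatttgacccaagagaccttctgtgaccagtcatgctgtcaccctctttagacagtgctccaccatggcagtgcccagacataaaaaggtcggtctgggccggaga
Searched on both strands, the Avp window held 1 E-box, which began 139 bases before the start, and the Oxt window none. Of 32851 promoter windows of this length, 6.02% held it. None of the other members with a window (Scg2, Pcsk1n, Chga, Pomc and Prl) held it. A match is only a run of letters, and binding was not measured.

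Most Avp molecules lay in few barcodes. The 58 barcodes with at least 10 Avp UMIs, a limit set after the values were seen, held 97.0% of all Avp UMIs, from 10 to 986 a barcode with a median of 75.5. The highest value below the limit was 8. These Avp-rich barcodes were 42 of suffix 1, 16 of suffix 2 and 0 of suffix 3. The neuron gate held 32 of them, and 25 of the 26 outside it had no Syt1 UMI, so the gate leaves out many barcodes with as much Avp. In suffix 1 they ran from 10 to 986 UMIs with a median of 77.5, and in suffix 2 from 12 to 419 with a median of 70. A glial, immune or vascular gate was passed by 13 of the 58, and its part in the result was not tested. The Avp level in neurons without such barcodes was 4837 CPM, against 4388 CPM with them.

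**Figure D2:**
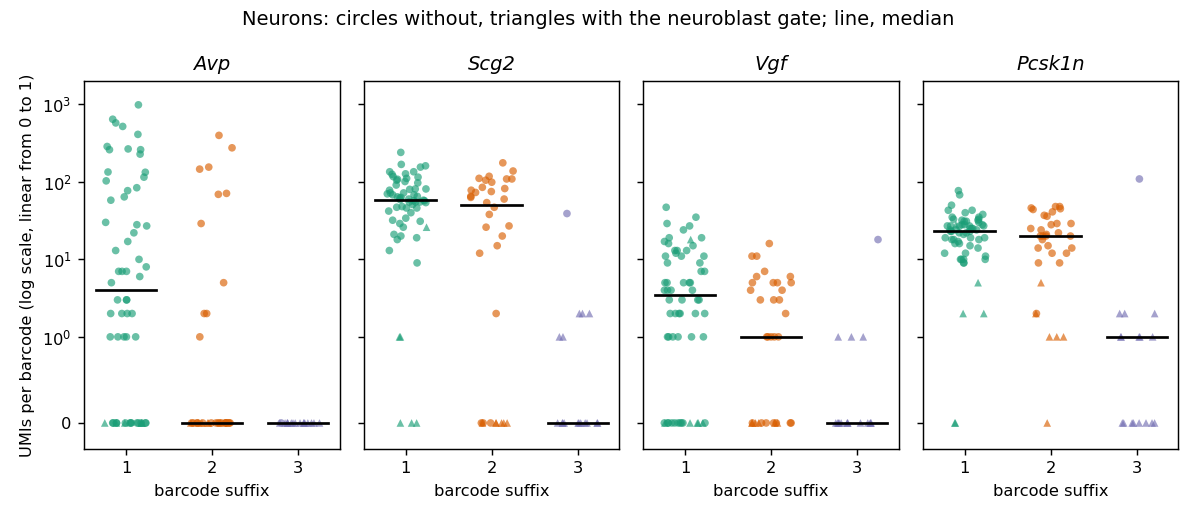
UMIs per barcode of Avp, Scg2, Vgf and Pcsk1n in the 113 neurons, by barcode suffix, on a log axis that is linear from 0 to 1; circles are neurons without and triangles with the neuroblast gate, and lines are medians. Avp spreads from 0 to 986, and Scg2 from 0 to 240 with medians of 58.5 and 50.5 in suffix 1 and 2. Nearly all neurons of suffix 3 are triangles at low values.

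The Avp-rich barcodes shared other genes, which were picked after their values were seen and are given as a description. Six6, a homeobox gene of the suprachiasmatic nucleus and pituitary, had a UMI in 55 of 58. The vesicular GABA transporter Slc32a1 was found in 43, and the vesicular glutamate transporter Slc17a6 in none. Sim1 and Otp, transcription factors of the hypothalamic nuclei that send vasopressin and oxytocin to the pituitary, were found in none of the 58. Rorb and Rgs16, which are known from the suprachiasmatic nucleus, stood at 621 CPM (95% interval 566 to 679) and 816 CPM (753 to 883). No cell type is named from these genes, which were not fixed as markers.

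The 48 neurons with fewer than 10 Avp UMIs and no Epcam or neuroblast gate held most of these genes too, at lower levels. The sets were gated differently, since 26 of the 58 Avp-rich barcodes lay outside the neuron gate. The 48 include 1 barcode of suffix 3 with 78247 UMIs and no Six6 UMI. Its part in these levels was not tested. Six6 stood at 267 CPM (95% interval 230.1 to 308) in 42 of the 48 neurons, against 359 CPM (318 to 404) in the Avp-rich barcodes. Rorb was at 463 CPM (414 to 516) and Rgs16 at 595 CPM (539 to 655), both below the intervals of the Avp-rich barcodes. For Slc32a1 the intervals overlapped, at 118 CPM (93.8 to 146) against 150 CPM (124 to 179.7). Neuromedin S (Nms), a peptide of the suprachiasmatic nucleus, was at 76.7 CPM (95% interval 57.6 to 100.02) against 180 CPM (151 to 212). Prokineticin 2 (Prok2), a secreted signal of the same nucleus, was at 83.8 CPM against 321 CPM, with a UMI in 11 of 48 and 20 of 58 barcodes. Vasoactive intestinal peptide (Vip) went the other way, at 385 CPM in 4 of 48 barcodes against 107 CPM in 1 of 58, with 195 of the 271 UMIs of the former in 1 barcode. The counting intervals of Nms and Prok2 did not overlap between these sets, but cells of 1 library are not replicates and the sets were cut by a measured value.

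Oxytocin was nearly absent. Its 52 UMIs came from 43 barcodes, 37 of them with 1 UMI, and by library there were 23, 14 and 15. The highest value, 5 UMIs, lay in a microglia-like barcode of suffix 2 with 0 Avp UMIs. In neurons there were 6 UMIs in 5 of 62 barcodes of suffix 1, or 6.99 CPM (95% interval 2.56 to 15.2), and none in the 34 and 17 neurons of the other libraries, which allows up to 6.69 and 15.9 CPM. Microglia-like barcodes were at 0.184 CPM and neuroblast-like barcodes at 0.609 CPM. Of the 58 Avp-rich barcodes, 6 held 8 Oxt UMIs in all, at 10.4 CPM (4.50 to 20.5) beside 11936 CPM of Avp. Thinned to 1000 UMIs, the share of neurons with an Oxt UMI fell from 4.42 to 0.465%. The counting interval of neurons lay above the levels of both other classes, but it rests on these 6 UMIs of 1 library.

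The 2 transcripts are alike in the part that codes for neurophysin, the carrier that is cut from both precursors. Reads that lie wholly within an identical stretch fit both genes. In GENCODE the Avp transcript of 577 bases and the Oxt transcript of 537 bases share an identical coding run of 127 bases, shown because it bears on how far Oxt counts can be trusted in barcodes rich in Avp.
Avp and Oxt shared run: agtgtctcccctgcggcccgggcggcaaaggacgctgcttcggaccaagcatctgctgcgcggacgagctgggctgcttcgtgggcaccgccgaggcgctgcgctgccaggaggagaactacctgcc
The run ends 307 bases before the end of the Avp transcript and 255 bases before that of Oxt, and 20.1% of the 20-base words of Avp occur in Oxt. The study's sequenced reads were longer than this run. Whether they were trimmed, and how the aligner treated reads that fit both genes, was not examined, so the 8 Oxt UMIs in Avp-rich barcodes are uncertain. For Gh and Prl the longest shared run was 9 bases.

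Scg2, which holds granules together and yields the peptide secretoneurin, was next to Avp among the 9 genes by fold in neurons, at 135-fold. It stood at 4805 CPM in suffix 1 (95% interval 4659 to 4954), 3985 CPM in suffix 2 (3803 to 4175) and 249 CPM in suffix 3 (183 to 331). The 34 neurons of suffix 2 include the 6 barcodes that pass both gates, with from 0 to 105 Scg2 UMIs each. Since the level without these 6 is not given, nothing is read from the gap between suffix 1 and 2. A UMI was found in 59 of 62, 25 of 34 and 6 of 17 neurons, and in suffix 3 the highest barcode held 39 of the 47 UMIs. Scg2 was detected in more neurons than Avp, with a median of 58.5 UMIs per neuron in suffix 1 (0 to 240) and 50.5 in suffix 2 (0 to 176). It was found in all 58 Avp-rich barcodes, at 5644 CPM (5477 to 5814), and in 46 of the 48 neurons below the Avp limit, at 4537 CPM (4381 to 4697). Neurons with the neuroblast gate were at 151 CPM. Among these, 1 barcode of suffix 1 held 26 Scg2 UMIs, and no other held more than 2.

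Vgf, a neurotrophin-induced precursor of several peptides, was lower throughout. Neurons held 528 CPM in suffix 1 (95% interval 480 to 579), 225 CPM in suffix 2 (183 to 274) and 111 CPM in suffix 3 (68.8 to 170), where 18 of 21 UMIs came from 1 barcode. By share, 47 of 62, 21 of 34 and 4 of 17 neurons had a UMI. The suffix 2 values again include the 6 barcodes that pass both gates. Avp-rich barcodes were at 548 CPM (497 to 603) and other neurons below the limit at 349 CPM (307 to 396). Among the classes outside the gates, Vgf stood apart in neuroblast-like barcodes, at 30.9, 23.2 and 36.9 CPM in suffix 1 to 3, against 0.260 CPM in microglia-like barcodes over all libraries. Neuroblast-like barcodes also held Scg2 at 16.7, 14.0 and 21.1 CPM, where oligodendrocyte-like barcodes had 7.34, 0.301 and 0.316 CPM. In suffix 1, 96 of the 112 Scg2 UMIs of oligodendrocyte-like barcodes came from 1 barcode.

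Chga, a granule core protein, was at 273, 261 and 153 CPM in the neurons of suffix 1, 2 and 3. Its intervals overlapped between suffix 1 (239 to 310) and 2 (216 to 313), and in suffix 3 1 barcode gave 23 of 29 UMIs. OPC-like barcodes held Chga too, at 63.0, 61.4 and 70.2 CPM by library, with a UMI in 29.2% (95% interval 24.3 to 34.4). Neuroblast-like barcodes were at 26.7, 29.6 and 34.1 CPM, and oligodendrocyte-like barcodes at 1.38, 0.552 and 1.38 CPM. Chga was thus lower in oligodendrocyte-like than in OPC-like barcodes in each library, with counting intervals apart.

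Pcsk1n, the inhibitor of the convertase PCSK1, was widely found outside neurons. It had 44491 UMIs, spread over the libraries as 13816, 15333 and 15342, and 65.3% of them lay in oligodendrocyte-like barcodes. By level, neurons were at 1712, 1601 and 635 CPM in suffix 1 to 3, and 109 of the 120 UMIs of suffix 3 came from 1 barcode. OPC-like barcodes were close behind at 1235, 1330 and 1279 CPM, with a UMI in 97.0% of them. Oligodendrocyte-like barcodes were at 479, 499 and 466 CPM, astrocyte-like barcodes at 187, 240 and 213 CPM and neuroblast-like barcodes at 89.7, 77.0 and 86.8 CPM. Microglia-like barcodes were at 6.54 CPM and T/NK-like barcodes at 7.19 CPM over all libraries. From neurons to OPC-like, oligodendrocyte-like, astrocyte-like and neuroblast-like barcodes the order was the same in every library, except that neurons of suffix 3, of which 16 of 17 passed the neuroblast gate, lay below OPC-like barcodes. Between OPC-like barcodes of the 3 libraries the intervals overlapped (1175 to 1298, 1239 to 1425 and 1127 to 1446). Pcsk1n is overlapped on the other strand by Eras, and reads of the 2 cannot be told apart unless strand was used in counting. The barcode that carries most of the suffix 3 counts was the same for 4 members. It was the 1 neuron of that library that did not pass the neuroblast gate, though it passed the gate of another class, and it held 109 UMIs of Pcsk1n, 39 of Scg2, 23 of Chga and 18 of Vgf, with 0 of Avp. It had 78247 UMIs in all, against a median of 11383 over neurons, and whether it holds more than 1 cell was not tested.

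Gh made up the largest count of the members, with 62398 UMIs, of which 62390 lay in suffix 2. Suffix 1 held 1 UMI and suffix 3 held 7, and none of these came from a barcode sequence that suffix 2 also has. In Epcam-positive barcodes, Gh stood at 33354 CPM in suffix 2 (95% interval 33091 to 33618), 11.4 CPM in suffix 3 (2.35 to 33.3) and 0 in suffix 1, which allows up to 2.52 CPM. Prl had 51815 UMIs with 51812 in suffix 2, at 27307 CPM in its Epcam-positive barcodes (27069 to 27546), 7.59 CPM in suffix 3 from 2 UMIs and 0 in suffix 1. The library of suffix 2 thus carries both hormones, and in the other libraries they were at or near 0.

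Within that library the hormones lay in few barcodes and never in the same ones. The 13 barcodes with at least 50 Gh UMIs, a limit set after the values were seen, held 98.9% of all Gh UMIs, and 13 others with at least 50 Prl UMIs held 98.3% of all Prl UMIs. Per barcode, Gh ran from 59 to 9479 UMIs with a median of 4221, and the highest value below the limit was 14. Prl ran from 461 to 11825 UMIs with a median of 2082, and the highest value below the limit was 10. All 13 Gh-rich barcodes had 0 Prl UMIs, and all 13 Prl-rich barcodes had 0 Gh UMIs. The hormone was up to 60.6% of a barcode's UMIs for Gh and 49.3% for Prl. Over the summed counts it made up 299921 CPM in Gh-rich and 342722 CPM in Prl-rich barcodes, which lowers the CPM of every other gene in them.

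**Figure D3:**
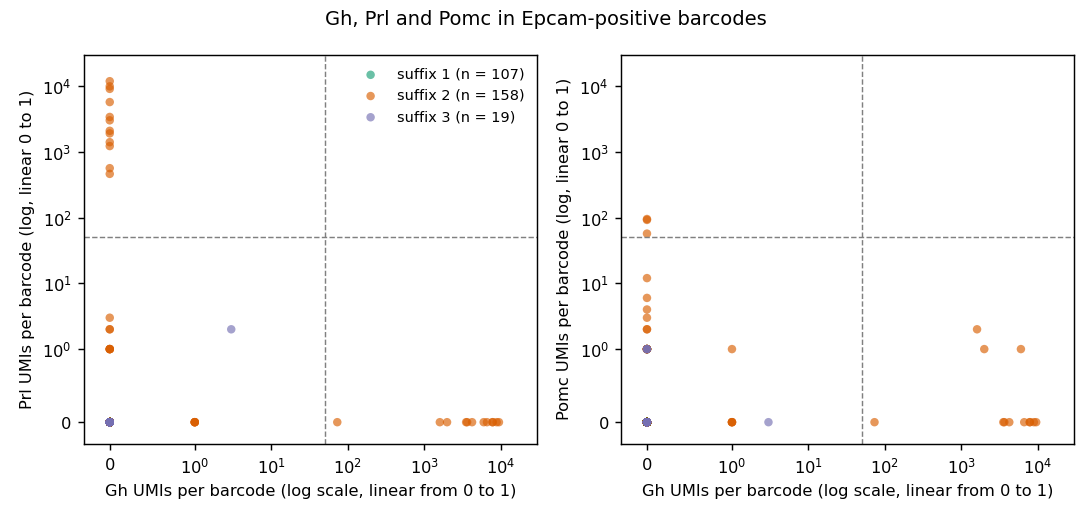
Gh against Prl (left) and Gh against Pomc (right), in UMIs per barcode on log axes that are linear from 0 to 1, for the 284 Epcam-positive barcodes coloured by suffix; dashed lines mark 50 UMIs. The points above a line lie along one axis or the other: the upper right area is empty, and all points past a line have suffix 2.

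The hormone-rich barcodes were placed by the gates as follows. Of the 13 Gh-rich barcodes, 12 were Epcam-positive and 3 of those also passed the neuron gate. Of the 13 Prl-rich barcodes, 12 were Epcam-positive and 1 of those also passed it. The Gh and Prl levels of neurons, 15072 and 7907 CPM, rest on these 4 barcodes. They and 2 Pomc-rich barcodes are the 6 that passed both gates. Below the limits, the other 30 neurons of suffix 2 held 5 Gh and 3 Prl UMIs. Of the 12 Epcam-positive Gh-rich barcodes, 3 had 7 or 8 of 8 microglia markers, with 110, 123 and 408 C1qa UMIs and 22456 to 40822 UMIs in all, and the microglia-like barcode with 59 Gh UMIs was the Gh-rich one outside Epcam. The part of barcodes with 2 cells in these values was not tested.

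Pou1f1, the transcription factor that the Gh and Prl lineages share, had a UMI in 9 of 13 Gh-rich and 11 of 13 Prl-rich barcodes, at 97.2 CPM (95% interval 59.4 to 150) and 296 CPM (215 to 398). Pitx1, an early pituitary factor, had a UMI in 7 of 13 of each. Ghrhr, the receptor for growth hormone-releasing hormone, had 11 UMIs in 5 of 13 Gh-rich barcodes and 0 in Prl-rich barcodes. Drd2, the receptor through which dopamine restrains prolactin release, had 2 UMIs in Prl-rich and 0 in Gh-rich barcodes. The intervals of Pou1f1 did not overlap, although the 26 barcodes come from 1 library. Of the 44 Pou1f1 UMIs in Prl-rich barcodes, 2 barcodes held 12 and 10, and the level without them was not computed.

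Granule genes differed between the 2 kinds of barcode, in both directions. Chgb, chromogranin B, stood at 7746 CPM in Prl-rich barcodes (95% interval 7305 to 8207) and 340 CPM in Gh-rich barcodes (265 to 430), with a median of 54 against 4 UMIs and 494 of 1151 UMIs in 1 Prl-rich barcode. Scg2 was at 1225 CPM in Prl-rich and 92.4 CPM in Gh-rich barcodes, with 105 of 182 UMIs in the same barcode and a median of 2 against 1 UMIs. Scg5, a chaperone of the convertase PCSK2, was at 1380 CPM (1197 to 1582) against 282 CPM (214 to 365), and was detected in 13 of 13 and 12 of 13. Pcsk1n differed less, at 1932 CPM (1715 to 2168) against 1220 CPM (1074 to 1381). Chga was at 209 and 68.1 CPM. Sytl4, another gene of the granule list, went the other way, with 0 UMIs in Prl-rich barcodes, which allows up to 20.2 CPM. In Gh-rich barcodes Sytl4 was at 107 CPM (67.0 to 162), with a UMI in 10 of 13. Cadps, Cadps2 and Ptprn2 also had lower CPM in Prl-rich barcodes, with overlapping intervals. The part of depth, and of the barcodes with microglia markers, was not tested.

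Prl lies on chromosome 13 of GRCm38 from 27057570 to 27065205 on the plus strand, where Gm47888 overlaps it on the other strand, and Gh on chromosome 11 from 106300271 to 106301865 on the minus strand. The 250 bases before the start of Prl, chr13:27057320-27057569 on the plus strand in RefSeq for GRCm38.p6, are shown because Pou1f1 is detected in the barcodes that hold its RNA. Capitals mark the core of the Pou1f1 motif, TATNCAT, on either strand.
Prl promoter: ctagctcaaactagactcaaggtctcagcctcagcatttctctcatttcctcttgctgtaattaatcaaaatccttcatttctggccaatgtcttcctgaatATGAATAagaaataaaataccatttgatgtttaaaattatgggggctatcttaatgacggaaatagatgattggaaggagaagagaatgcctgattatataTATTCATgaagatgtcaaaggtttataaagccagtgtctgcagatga
The window held 2 matches, which began 148 and 47 bases before the start, and 7.92% of the 32851 windows held at least 1. None of the other 6 members with a window held a match. The sequence tables list no promoter for Gh and Vgf.

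Pomc was spread over the libraries more evenly than Gh and Prl. Of 2241 UMIs, 394 lay in suffix 1, 921 in suffix 2 and 926 in suffix 3. Only 3 barcodes, all of suffix 2 and Epcam-positive, had at least 50 UMIs, at 57, 92 and 95, and the next highest held 12. All 3 had 0 Gh UMIs, and 1 held 2 Prl UMIs. Tbx19, the factor of the corticotropin lineage, had a UMI in 2 of the 3, and Pou1f1 in none. Of the 3, 2 also passed the neuron gate, which sets the Pomc level of suffix 2 neurons, 341 CPM, against 19.8 CPM (95% interval 11.5 to 31.7) in suffix 1 and 10.6 CPM (1.28 to 38.2) in suffix 3.

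Outside these barcodes, Pomc had a low level in most classes. It was at 5.52 CPM (95% interval 5.05 to 6.02) in microglia-like, 6.32 CPM (5.70 to 6.98) in oligodendrocyte-like, 4.73 CPM (3.51 to 6.24) in T/NK-like and 15.6 CPM (10.6 to 21.97) in OPC-like barcodes. Endothelial-like barcodes stood above these at 41.9 CPM (37.0 to 47.3), with a UMI in 23.0% (20.1 to 26.1) at a median of 5651 UMIs, against 4.27% of microglia-like barcodes at a median of 7247. After thinning to 1000 UMIs the shares were 4.24 and 0.544%. Of the 783 endothelial-like barcodes, 762 had suffix 3, at 41.8 CPM, and the 20 of suffix 2 were at 46.8 CPM (18.8 to 96.4). No endothelial-like barcode held more than 6 UMIs.

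Of the other pituitary hormone genes, Cga, Lhb and Fshb also lay mostly in suffix 2. Cga, the alpha subunit common to the gonadotropins and thyrotropin, had 4425 UMIs, all of suffix 2, and 3683 of them in 1 Epcam-positive barcode. Lhb had 25 UMIs in 23 barcodes of suffix 1, 476 in 40 of suffix 2 and 13 in 10 of suffix 3, and all 204 Fshb UMIs had suffix 2. The same barcode held 384 UMIs of Lhb and 170 of Fshb, the beta subunits of luteinizing and follicle-stimulating hormone, with 31 of Gnrhr, the receptor for gonadotropin-releasing hormone, 432 of Scg2 and 90 of Chga, and 0 of Gh and Prl. Another Epcam-positive barcode had 524 Cga, 39 Lhb and 34 Fshb UMIs, with 24 of Scg2 and 10 of Chga. A pair of barcodes with 59 and 50 Cga UMIs held no Lhb or Fshb but 11 and 5 UMIs of Tshb, the thyrotropin beta subunit. These 4 barcodes all had 0 Gh and 0 Prl UMIs. Tshb had 95 UMIs over all kept barcodes, and its counts by library are not given here. Of the 16 other pituitary genes, 4 had enough UMIs for a fold. Cga, Lhb and Fshb were past 4-fold in Epcam-positive barcodes, beside 0.431% of all genes. All 204 Fshb UMIs lay in 2 Epcam-positive barcodes, and 1 of these held 3683 of 4425 Cga and 384 of 514 Lhb UMIs. The UMIs that made these genes eligible for a fold thus lay mostly in the gate itself. For that reason nothing is read from their folds or from the share beside them. Six6 was past it in neurons, beside 3.14% of all genes.

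In droplet data, RNA that is free in the suspension can give UMIs in any barcode, so Gh and Prl were read in classes that should lack them, with the richest barcode of each class left out. In suffix 2, Gh was at 5.82 CPM in microglia-like barcodes (95% interval 5.20 to 6.50), 7.83 CPM in oligodendrocyte-like (6.65 to 9.16), 8.70 CPM in T/NK-like (6.47 to 11.4) and 6.74 CPM in neuroblast-like barcodes (4.36 to 9.95). Prl was at 7.68, 9.49, 10.1 and 11.9 CPM in the same order. In suffix 1 and 3, none of these classes held a UMI of either hormone, which in microglia-like barcodes allows up to 0.100 and 0.360 CPM. The low counts were thus found in the library that has the hormone-rich barcodes, in all 4 classes. For both hormones microglia-like barcodes were lowest by CPM, and for Gh their interval lay below that of oligodendrocyte-like barcodes.

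The share of Gh among the UMIs of both hormones had overlapping intervals across these classes. Among suffix 2 barcodes below the limits, Gh was 42.5% of the UMIs of both hormones in microglia-like barcodes (exact 95% interval 38.9 to 46.2), 45.9% in oligodendrocyte-like (40.6 to 51.2), 47.0% in T/NK-like (37.7 to 56.5) and 37.8% in neuroblast-like barcodes (26.8 to 49.9). In the hormone-rich barcodes it was 54.8% (54.5 to 55.1). These UMIs came from 26 barcodes, which held either Gh or Prl and never both, with up to 11825 UMIs of the hormone in a barcode. The interval covers counting error only and leaves out which barcodes were caught. For that reason nothing is read from its place beside the intervals of the other classes. A barcode below the limits held on average 0.127 UMIs of the 2 hormones together in the microglia-like class and 0.101 in the T/NK-like class.

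**Figure D4:**
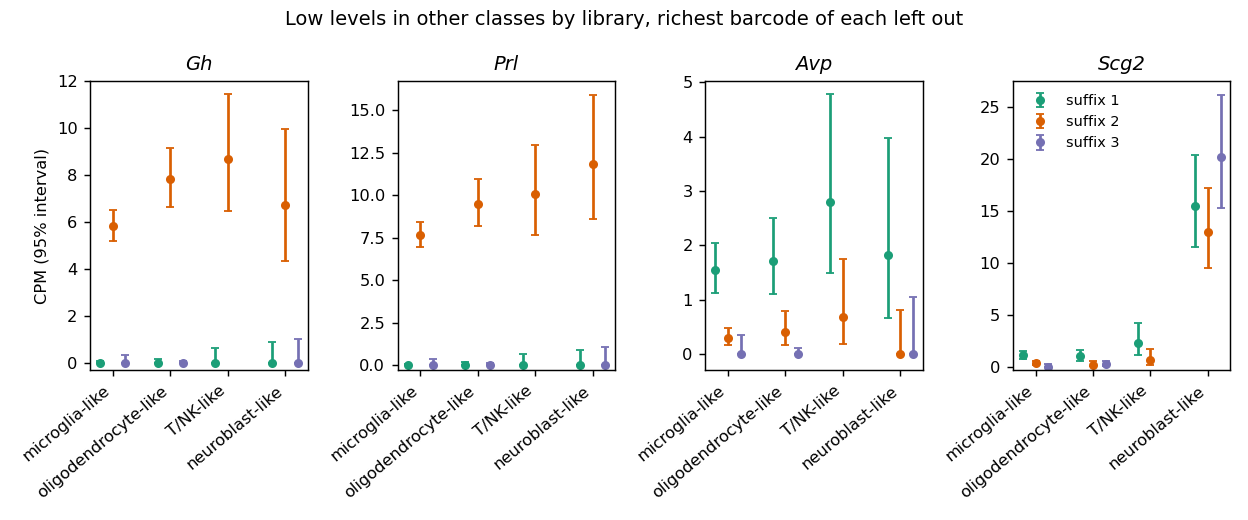
CPM of Gh, Prl, Avp and Scg2 in 4 classes outside the gates, by barcode suffix, with the richest barcode of each class and library left out and exact Poisson 95% intervals; T/NK-like barcodes of suffix 3 are not drawn because they were under 20. Gh and Prl are above 0 in suffix 2, Avp is highest in suffix 1, and Scg2 is at 12.96 to 20.2 CPM in neuroblast-like barcodes of all libraries.

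Avp had the same kind of low count in the library with most Avp-rich barcodes. In suffix 1 it was at 1.54 CPM in microglia-like barcodes (95% interval 1.13 to 2.05), 1.71 CPM in oligodendrocyte-like (1.11 to 2.50), 2.80 CPM in T/NK-like (1.49 to 4.78) and 1.82 CPM in neuroblast-like barcodes (0.670 to 3.97). In suffix 2 the values were 0.297, 0.401, 0.682 and 0 CPM, and in suffix 3 they were 0 in the microglia-like, oligodendrocyte-like and neuroblast-like classes. Scg2 in microglia-like, oligodendrocyte-like and T/NK-like barcodes was at 1.14, 1.05 and 2.37 CPM in suffix 1 and 0.389, 0.251 and 0.682 CPM in suffix 2. In suffix 3 it was at 0 in microglia-like and 0.277 CPM in oligodendrocyte-like barcodes. In neuroblast-like barcodes Scg2 stood at 15.5, 12.96 and 20.2 CPM in suffix 1 to 3. Epcam-positive barcodes held 3 Avp UMIs, at 0.839 CPM (0.0213 to 4.68) in suffix 1, 1.08 CPM (0.131 to 3.91) in suffix 2 and 0 CPM in suffix 3.

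The rest of the secretory pathway was counted from lists. Of 9 dense-core granule genes other than the members, 8 were tested and 7 were at least 4-fold higher in neurons, beside 3.14% of all genes. In Epcam-positive barcodes 1 was, beside 0.431% of all genes. The highest in neurons was Chgb at 37.2-fold, followed by Cadps2, a priming factor for granule release, at 12.8-fold and Ptprn, a granule membrane protein, at 10.2-fold, and Scg5, Cadps, Scg3 and Ptprn2 lay between 9.07 and 4.54-fold. The Chgb fold rests in large part on 1 Prl-rich barcode that passed both gates and held 494 Chgb UMIs. Its fold without that barcode was not computed. The vesicular monoamine transporter Slc18a2 was at 1.47-fold. Of 7 precursor-processing genes, 3 were past 4-fold in neurons, the convertase Pcsk2 at 12.8-fold, the carboxypeptidase Cpe at 8.24-fold and the amidating enzyme Pam at 6.90-fold, and none in Epcam-positive barcodes. The convertase Pcsk1 was at 3.73-fold, and the general convertase Furin at 0.76-fold.

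Several of these genes were also high outside neurons. Cpe was at 2430 CPM (95% interval 2318 to 2545) in astrocyte-like barcodes, above the 489 CPM of neurons, and Scg3, a granule sorting protein, at 1007 CPM (936 to 1082) against 162 CPM. OPC-like barcodes held Qpct, which closes the N-terminus of peptides to pyroglutamate, at 337 CPM against 68.9 CPM in neurons. They also held Tac1, the substance P precursor, at 68.1 CPM (57.3 to 80.3), with a UMI in 101 of 329, beside Chga and Pcsk1n. These granule and processing genes were thus not particular to neurons by level.

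Of 24 other neuropeptide genes, 10 had enough UMIs, and 3 were past 4-fold in neurons, beside 3.14% of all genes. Cck, cholecystokinin, was at 35.6-fold with 756 UMIs in 28 of 113 neurons. Vip was at 23.1-fold with 353 UMIs in 5 neurons, and Nms at 11.7-fold with 166 UMIs in 40 neurons. Nms had 249 UMIs in all kept barcodes, so it had enough UMIs for a fold only through the neuron gate itself. For that reason nothing is read from its fold or from the count of 3 beside the share of all genes. Cck stood at 644 CPM in Avp-rich barcodes (95% interval 589 to 704) and 656 CPM in the neurons below the Avp limit (597 to 718). The opioid precursor Penk was at 3.32-fold, and somatostatin (Sst), thyrotropin-releasing hormone (Trh) and corticotropin-releasing hormone (Crh) had 7, 17 and 3 UMIs in all kept barcodes. Of 8 hypothalamic transcription factors, 4 were tested, and 1 was past 4-fold in neurons, beside 3.14% of all genes. It was Lhx1, which is known from the suprachiasmatic nucleus, at 11.0-fold. Lhx1 stood at 89.8 CPM in Avp-rich barcodes (69.9 to 114) and 165 CPM in the neurons below the limit (136 to 198).

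The receptors of these hormones were mostly at low counts. Of 12, 4 had at least 100 UMIs, and none was past 4-fold higher in either gate. C3ar1, a complement receptor that also binds a Vgf peptide, was lower in neurons at 0.23-fold, where 2.12% of all genes were at least 4-fold lower. Over all 31982 kept barcodes, the vasopressin receptors Avpr1a, Avpr1b and Avpr2 had 14, 6 and 17 UMIs and the oxytocin receptor Oxtr had 3. Of the Avpr1a UMIs, 8 lay in 8 neurons, at 5.35 CPM (95% interval 2.31 to 10.5). The prolactin receptor Prlr was at 464 CPM (439 to 490) in choroid plexus-like barcodes, with a UMI in 83.2% of 184. The growth hormone receptor Ghr was at 40.8 CPM (27.5 to 58.3) in astrocyte-like and 16.1 CPM (13.1 to 19.5) in endothelial-like barcodes. C3ar1 stood at 186 CPM in microglia-like and 344 CPM in macrophage-like barcodes.

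For each member, the genes with the most similar pattern were taken by Pearson's r of log2(CPM + 10) over 31 groups of class and library, which share libraries and differ in depth, so r is a description with no p. Gh and Prl were most like each other, with r = 0.995, and Pomc followed Gh with r = 0.828. Avp was most like Magel2, Nell1 and Galntl6, each with r = 0.996. Chga was most like Ly6h and Chgb with r = 0.965 and 0.962, Vgf like Prokr2 with r = 0.986, Scg2 like 5330417C22Rik with r = 0.990 and Pcsk1n like Nap1l5 with r = 0.962. For Oxt, the closest was Ankrd55 with r = 0.904, on 52 Oxt UMIs. Gh and Prl thus had nearly the same pattern over classes and libraries while no rich barcode held both. Their r rests mostly on the neuron and Epcam-positive groups of suffix 2, which share the 6 barcodes that pass both gates. The values for Avp rest mostly on the neuron groups of suffix 1 and 2.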

How the data were processed

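Brain tissue of control, ischemic stroke and hemorrhagic stroke mice was measured by scRNA-seq with a 3' kit, 1 library per condition. The authors deposited 1 matrix of UMI counts for the 3 libraries, made with Cell Ranger 3.1.0 and STAR, with reads down-sampled across libraries. The submitters' processing notes name mm10 as build and also Seurat 3.1.1. The deposited counts are whole numbers per gene and barcode, not normalized.

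Of 35968 barcodes, the 31982 with at least 1000 UMIs and at most 30% mitochondrial counts were kept. The limit on mitochondrial counts is the study's. A barcode passed a class when at least 60% of that class's markers had a UMI. Barcodes of no gate or of several gates (a stand-in for a doublet caller) were left out of the named classes, and macrophage markers took precedence over microglia markers. The ending "-like" marks a class set by this marker rule. No clustering was run, so shares of classes may differ from those of the study. Counts were summed per class and library, and scaled to CPM with exact Poisson 95% intervals. Shares have exact Clopper-Pearson 95% intervals, and a count of 0 allows up to 3 counts. Thinned shares are the expected share when 1000 UMIs are drawn from each barcode. Since UMIs count molecules from the 3' end, levels of different genes were set beside each other without a length correction.

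The named genes are the 9 members, the genes of 6 lists (granule, processing, other neuropeptide, other pituitary, receptor and hypothalamic factor genes) that passed 4-fold or were singled out as low, the 10 leading genes of each gate (highest fold among genes with a UMI in at least 25% of its barcodes) and the 3 genes most like each member. Prok2, Rorb, Rgs16, C1qa, Slc32a1, Slc17a6, Tac1 and the genes of the hormone-rich barcodes were named after their values were seen. The members and lists were chosen with earlier results of these data known. Kiss1 was left out because its symbol is duplicated. Of the gene identifiers in the matrix, 99.6% were found in GENCODE's annotation of GRCm38, which is the build of mm10. The steps were tested on simulated data. With 1 library per condition and no source used here that ties a suffix to a condition, no test was run. Python 3.11.15, NumPy 2.4.6, pandas 2.3.3, SciPy 1.17.1 and Matplotlib 3.10.9 were used.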

Additional observations from a re-analysis of the deposited data

How the results depend on the processing

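No paired analysis was possible because each condition has 1 library and no result comes from a test. Of 52 alternatives, 31 left a value within its counting interval or a count within 1.5 times. Counting intervals of high counts are narrow, so small shifts fall outside them. The Avp level in neurons, 4388 CPM, was 1809 to 5166 CPM when each library was left out, and the value of 1809 CPM is without suffix 1, which holds most Avp. It was 4837 CPM without barcodes of a glial, immune or vascular gate, 6725 CPM with at least 4 Snap25 and 2 Syt1 UMIs, and, as alternatives chosen after seeing the data, 5219 CPM without barcodes of the neuroblast gate and 4711 CPM without barcodes of both gates. The Oxt level, 4.01 CPM, was 0 to 5.73 CPM when each library was left out, with 0 without suffix 1. In Epcam-positive barcodes, Gh at 18663 CPM and Prl at 15280 CPM fell to 2.06 and 1.37 CPM without suffix 2, and were at most 29194 and 23901 CPM without suffix 1. Without barcodes of a glial, immune or vascular gate they were 40930 and 50098 CPM, with at least 2 Epcam UMIs 41723 and 34072 CPM, and Gh with at most 10% mitochondrial counts 19005 CPM. The 474 genes past 4-fold in neurons became 1257, and the 65 in Epcam-positive barcodes 226, with 1 added to CPM. Thinning to 1000 UMIs moved 13 of 18 member shares below their intervals. At this depth Oxt had 52 UMIs in all, and 8 of 12 receptors had fewer than 100.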
